A study of Mus musculus with 4 samples.

Results

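Tetraspanins are small proteins that cross the plasma membrane several times and hold other membrane proteins together in patches. The genes described here are 10 of this family that were chosen by symbol, Cd9, Cd37, Cd53, Cd63, Cd81, Cd82, Cd151, Tspan13, Tspan31 and Tspan32, out of 39179 gene identifiers in the count tables. The rule is a list of names and uses no expression value, but the list was chosen with earlier results of these data known. Of the 10, 9 had enough counts to be tested and Cd63 did not. The cells were CD4 T cells from OT-II mice, which carry 1 transgenic receptor for ovalbumin; they were put into C57BL/6 hosts that were then immunised under the skin with ovalbumin coupled to nitrophenol. The donor cells, marked by Thy-1.1, were sorted as CD44hi from pooled inguinal nodes on day 8, into follicular helper (Tfh) cells positive for CXCR5 and PD-1, the T cells that aid B cells in germinal centres, and non-Tfh cells negative for both (CXCR5- PD-1-). Both groups therefore share the receptor, the host strain, the antigen, the day and the CD44hi gate, and no unimmunised or host-derived cells were compared here. Each group had 2 libraries, named T32 and T53, and the labels do not say how many animals were pooled or whether T32 and T53 are separate animals, and p-values measure the spread between these samples, which may be technical.

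A tetraspanin has a small and a large loop outside the cell, and the large loop carries a cysteine-cysteine-glycine motif that marks the family and is stabilised by disulfide bonds. Through the large loop and the membrane segments tetraspanins bind integrins, immunoglobulin-type proteins, co-receptors and proteases, and fatty acids (palmitate) on their inner cysteines link one tetraspanin to another. In lymphocytes they are known as organisers of the contact with antigen-presenting cells, of adhesion and of vesicle traffic, and several of them costimulate T cells when bound by antibody.

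The stretch of coding sequence around that motif is shown for each of the 10 genes because it is what the members share apart from their names. Each line gives 12 coding bases on either side of the codons for cysteine, cysteine and glycine, which stand in capitals, read 5′ to 3′ on the coding strand of the GRCm38 transcripts (GENCODE M21). The first such motif after codon 120 was taken.
Cd81: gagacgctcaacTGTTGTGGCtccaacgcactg
Cd9: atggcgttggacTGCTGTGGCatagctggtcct
Cd82: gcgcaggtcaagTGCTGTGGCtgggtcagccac
Cd151: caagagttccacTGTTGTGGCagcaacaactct
Cd53: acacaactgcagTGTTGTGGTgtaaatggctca
Cd37: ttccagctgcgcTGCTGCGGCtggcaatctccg
Tspan32: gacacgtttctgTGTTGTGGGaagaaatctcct
Cd63: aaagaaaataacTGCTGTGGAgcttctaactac
Tspan13: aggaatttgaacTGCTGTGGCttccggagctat
Tspan31: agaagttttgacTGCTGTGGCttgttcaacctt

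These codons, TGT or TGC followed by TGT or TGC and GGN in frame, were found in the longest coding transcript of 10 of 10 members and of 21 of 21 other mouse tetraspanins. They occurred in 564 of 21584 coding genes (2.61%). Among the members the motif began between codon 128 in Tspan13 and codon 174 in Cd37. Cd9, Cd82, Tspan13 and Tspan31 used the same codons, TGCTGTGGC, and Cd81 and Cd151 shared TGTTGTGGC.

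Library totals ran from 5725358 to 13360563 counts, so a single count equalled between 0.0745 and 0.175 CPM (counts scaled to library size by TMM), and each library had a count for 14613 to 15946 genes. The 2 sorting genes followed the labels: Cxcr5 was at 747 and 712 CPM in Tfh against 52.6 and 56.0 in non-Tfh, and Pdcd1 at 536 and 576 against 57.0 and 53.4. All 8 T cell markers were present in each library. Among markers of other cells, platelet and erythroid genes summed to 4 to 21 counts a library, nearly all from Itga2b, with Pf4 and Ppbp at 0. Mast cell genes summed to 0 counts and granulocyte genes to 0 or 1 count. Macrophage genes summed to 63, 33, 35 and 66 counts in Tfh T32, Tfh T53, non-Tfh T32 and non-Tfh T53. In that order, dendritic cell genes summed to 31, 18, 44 and 60, and plasma cell genes to 51, 22, 73 and 48. Of the CD8 T cell markers, Cd8b1 had 74, 22, 56 and 32 counts and Cd8a had 0, 0, 2 and 0. The macrophage gene Lyz2 had 39 counts in non-Tfh T53 and 2 in non-Tfh T32.

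Between Tfh and non-Tfh cells, 2 of the 9 tested members rose in Tfh cells, Cd81 by 3.10-fold and Cd82 by 1.75-fold, and none fell. A gene was called where its adjusted p was under 0.05 by edgeR's quasi-likelihood test with Benjamini-Hochberg adjustment across the 11702 genes that passed the count filter. By that rule 8.49% of all genes tested were called, 4.47% higher and 4.02% lower in Tfh cells, against 22.2% of the 9 members. A count of 2 among 9 is small, and the members' median log2 fold change of 0.06 lay near that of all genes, -0.01. The median size of the change, sign left aside, was 0.18 in the members and 0.22 in all genes. The groups did not overlap, both libraries of one group lying above both of the other, in 5 of the 9 members (Cd81, Cd82 and Tspan13 higher, Cd9 and Tspan31 lower), where 52.2% of all genes tested had such groups (26.6% higher and 25.6% lower in Tfh cells). In bulk libraries, fewer cells with a transcript and less of it per cell cannot be told apart.

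**Figure D1:**
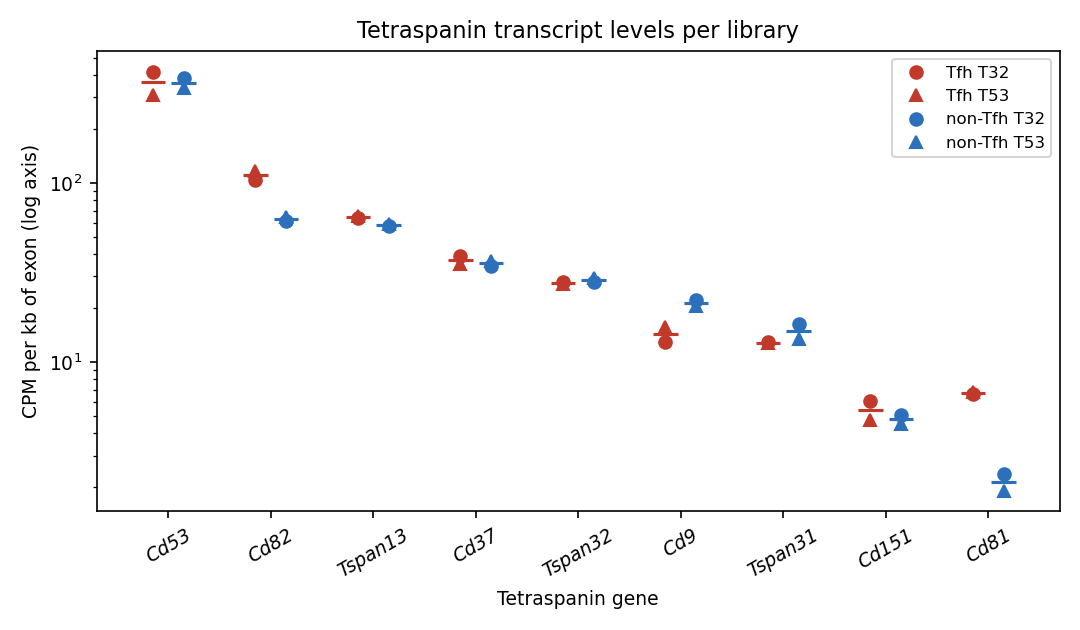
Levels of 9 tetraspanins in each library as CPM per kb of exon on a log axis, with Cd63 left out because it was not tested. Points are libraries and bars are group means (n = 2); Cd53 stood highest in each library, Cd82 and Cd81 lay higher in both Tfh libraries, and Cd9 lay lower in both.

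Set per kb of exon, which allows genes to be compared, Cd53 was the most abundant member, with means of 364 CPM per kb in Tfh and 362 in non-Tfh cells. It made up 52.2 to 63.0% of the members' summed CPM per kb in the 4 libraries. Cd82 followed with 110 CPM per kb in Tfh and 62.9 in non-Tfh cells, and Tspan13 with 64.6 and 58.3. Next came Cd37 with 37.2 and 35.6, and Tspan32 with 27.5 and 28.7 CPM per kb. Cd9 had 14.3 CPM per kb in Tfh and 21.3 in non-Tfh cells, beside 12.8 and 14.8 for Tspan31. In Tfh cells the gap between those genes (Cd9 from 12.9, Tspan31 up to 12.8) was smaller than the spread of Cd9, while in non-Tfh cells Cd9 at 20.5 and 22.1 stood clear of Tspan31 at 13.4 and 16.3. The order of Cd81 and Cd151 differed between groups. Cd81, at 6.64 and 6.80 CPM per kb, lay above Cd151 at 6.02 and 4.72 in Tfh libraries, and in non-Tfh libraries Cd81 at 2.38 and 1.91 lay below Cd151 at 5.06 and 4.51. The order from Cd53 down to Tspan32 was the same in both groups, with no overlap between neighbours in that order within either group.

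Cd81 associates with CD4 and CD8 on T cells, where it costimulates. It lies on the plus strand of chromosome 7 (GRCm38 7:143052739-143067934, ENSMUSG00000037706). It was at 19.1 and 19.6 CPM in Tfh T32 and T53 and at 6.85 and 5.51 in non-Tfh T32 and T53, from 228, 112, 92 and 49 counts. Both Tfh libraries were about level and well above both non-Tfh libraries. The means were 19.3 ± 0.325 and 6.18 ± 0.951 CPM (SD, n = 2), a log2 fold change of 1.63 ± 0.203 (SE; 95% interval 1.14 to 2.12; edgeR adjusted p = 0.00737). Within T32 the log2 ratio was 1.42 and within T53 it was 1.74, each with 0.5 CPM added. The call was made under each of the 13 alternatives run, with log2 fold changes from 1.49 to 1.81. None of its exonic windows of the read length, 75 bases, occurs in another gene.

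Cd81 is strongly transcribed in B cells, and B cell markers also differed between the groups. The 12 B cell markers summed to 1732 and 808 counts in Tfh libraries and to 158 and 180 in non-Tfh libraries. Cd22, with 1665, 770, 129 and 132 counts in the library order used above, and Pax5, with 61, 30, 0 and 4, held nearly all of them. The other 10 markers summed to 6 and 8 counts in Tfh libraries against 29 and 44 in non-Tfh libraries, and Ebf1, Blk and Fcrla were at 0 in both Tfh libraries.

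Cd9 shares partners with Cd81 and acts in cell fusion and T cell costimulation, and is also abundant on platelets. Its gene is on the minus strand of chromosome 6 (6:125460266-125494791). It was at 26.31 and 31.96 CPM in Tfh T32 and T53 and at 45.1 and 41.8 in non-Tfh T32 and T53. Both Tfh libraries lay below both non-Tfh libraries, the opposite side from Cd81. The means of 29.14 ± 3.999 and 43.5 ± 2.35 CPM (SD, n = 2) gave a log2 fold change of -0.59 ± 0.151 (95% interval -0.95 to -0.22), and Cd9 was not called (unadjusted p = 0.00720, edgeR adjusted p = 0.0679). It passed the threshold under 2 of 13 alternatives, with no count filter (adjusted p = 0.00653) and with the library number as a block (adjusted p = 0.0231). Of its 1967 windows of 75 exonic bases 150 (7.63%) occur in another gene, so some of its reads may be counted elsewhere. The difference between the responses of Cd9 and Cd81 was not tested.

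Cd82, which associates with integrins and with CD4 and CD8 and slows cell spreading and migration in many cell types, rose in Tfh cells. It is on the minus strand of chromosome 2 (2:93419111-93463140, ENSMUSG00000027215). It was at 313 and 351 CPM in Tfh T32 and T53 and at 184 and 194 in non-Tfh T32 and T53. Both Tfh libraries stood above both non-Tfh libraries. The means were 332 ± 27.1 and 189 ± 6.88 CPM (SD, n = 2), a log2 fold change of 0.81 ± 0.123 (95% interval 0.51 to 1.11; edgeR adjusted p = 0.0138). Within T32 the log2 ratio was 0.76 and within T53 it was 0.85. The call was kept under 12 of 13 alternatives and lost without Tfh T53, where the log2 fold change was 0.74 (adjusted p = 0.0554).

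Cd151, which binds the laminin-binding integrins most tightly, was a low member on the plus strand of chromosome 7 (7:141467392-141471473). It was at 16.5 and 12.9 CPM in Tfh T32 and T53 and at 13.9 and 12.4 in non-Tfh T32 and T53. The groups overlapped. The log2 fold change was 0.18 (95% interval -0.31 to 0.66; edgeR adjusted p = 0.688), so a change of the size seen for Cd81 lies outside its interval, and 119 of its 3100 windows (3.84%) occur in another gene.

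**Figure D2:**
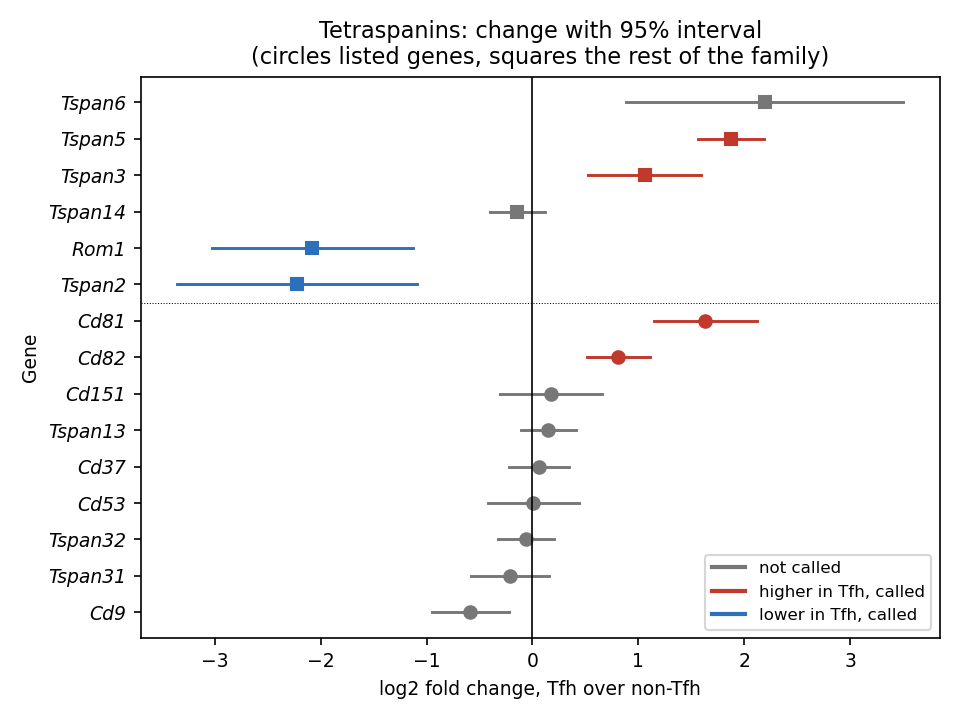
Log2 fold change of Tfh over non-Tfh with a 95% interval worked out from edgeR's F statistic, for 9 listed tetraspanins (circles) and 6 others that were tested (squares). Colour marks genes called at an adjusted p under 0.05. Cd81 and Cd82 are the called circles, at 1.63 and 0.81.

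Cd53, Cd37 and Tspan32 are made mainly by blood cells. CD53 stabilises L-selectin and supports lymphocyte recirculation, CD37 restrains cytokine signalling and aids antibody responses, and Tspan32 (TSSC6) restrains T cell proliferation. Cd53 (3:106759921-106790149) and Cd37 (7:45233632-45239115) lie on the minus strand and Tspan32 (7:143005046-143019644) on the plus strand. Cd53 was at 727 and 542 CPM in Tfh T32 and T53 and at 673 and 588 in non-Tfh T32 and T53, and the groups overlapped. Its log2 fold change was 0.01 (95% interval -0.42 to 0.44; edgeR adjusted p = 0.986). Cd37 was at 138 and 124 CPM in Tfh and 121 and 129 in non-Tfh cells, again overlapping, with a log2 fold change of 0.06 (95% interval -0.22 to 0.34; adjusted p = 0.821). Tspan32 was at 174 and 169 CPM in Tfh and 173 and 184 in non-Tfh cells, overlapping, with a log2 fold change of -0.06 (95% interval -0.33 to 0.21; adjusted p = 0.820). The intervals of these blood-cell members leave out a rise or a fall of the size of Cd82, whose log2 fold change was 0.81, but not smaller changes.

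Cd63 is the tetraspanin of late endosomes, lysosomes and secreted vesicles (plus strand, 10:128900989-128912822). It had 0 counts in both T32 libraries and 2 counts in both T53 libraries, so it was not tested. The 2 libraries with 0 allow up to 3 counts, or 0.251 CPM for Tfh T32 and 0.224 for the non-Tfh one, for counting error only. Of its 4141 windows 268 (6.47%) also occur in the pseudogene Cd63-ps, which had 3, 1, 3 and 2 counts. No other member was below 5 CPM in a library.

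Tspan13 and Tspan31 are widely made members whose function in T cells is less well known, both on the minus strand (12:36014557-36042500 and 10:127067280-127070264). Tspan13 was at 157 and 162 CPM in Tfh T32 and T53 and at 143 and 146 in non-Tfh T32 and T53; both Tfh libraries were higher, by a log2 fold change of 0.15 (95% interval -0.11 to 0.41) that was not called (edgeR adjusted p = 0.502). Tspan31 was at 28.2 and 28.1 CPM in Tfh and 35.7 and 29.3 in non-Tfh cells, both Tfh libraries lower, with a log2 fold change of -0.21 (95% interval -0.58 to 0.16; adjusted p = 0.506). Of its 2261 windows 567 (25.1%) lie in Cdk4, a cell cycle kinase gene that overlaps it on the opposite strand. Cdk4 had 972, 419, 1088 and 583 counts, and whether the counting used strand is not given in the sources used here, so reads of that overlap cannot be assigned.

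Tspan32 and Cd81 are neighbours on chromosome 7, on the same strand with starts 47693 bases apart, yet of the pair only Cd81 was called. R74862 runs from between them past the start of Cd81 on the opposite strand, with 0 to 4 counts a library, and its exons overlap those of Cd81 by under 75 bases each; Tspan32os, on the opposite strand at the start of Tspan32, had 11, 1, 4 and 2 counts and shares 197 of the 6663 windows of Tspan32 (2.96%). Past Cd81, Tssc4 began 16510 bases from its start and was not called (edgeR adjusted p = 0.650). On the other side Ascl2, a transcription factor that induces Cxcr5 in T cells, had 87 and 123 counts in Tfh libraries and 0 in both non-Tfh libraries, and was called (edgeR adjusted p = 0.0295). That call was lost without non-Tfh T32 (0.157) or non-Tfh T53 (0.140). Its start lies at -35782 bases from that of Tspan32 and at -83475 bases from that of Cd81. Of the 65 genes within 100 kb of the members, 34 were tested and 3 called, Ascl2 higher and Dkkl1 and B4galnt1 lower, against 8.49% of all genes. Ascl2 and Dkkl1 passed the count filter through the group where they were high, so this share is no measure of the neighbours.

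**Figure D3:**
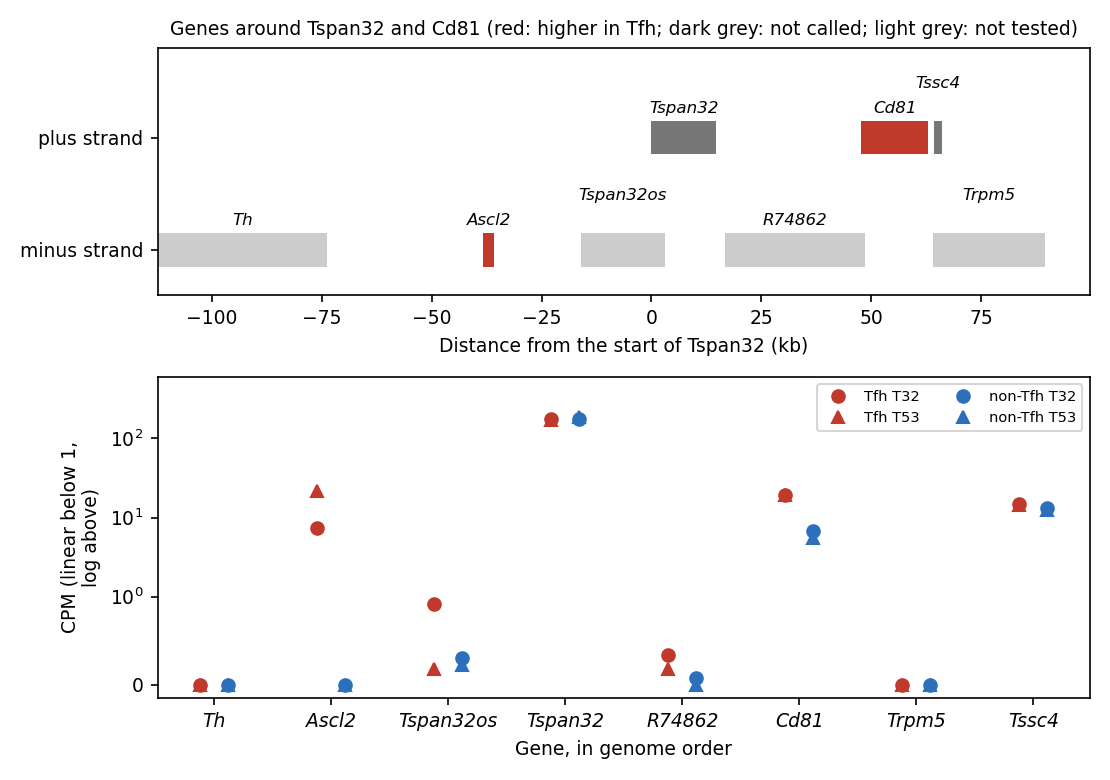
Top, genes around Tspan32 and Cd81 by distance from the start of Tspan32 in kb and by strand; bottom, their CPM in each library on an axis that is linear below 1 and logarithmic above. Ascl2 and Cd81 lie higher in both Tfh libraries, while the Tspan32 points lie between 169 and 184 CPM.

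Promoter sequence from RefSeq (GRCm38.p6) was read for the members that rose and for Tspan32, the uncalled neighbour of Cd81, and all 10 members matched the promoter table by symbol. Windows run up to 250 bases before an annotated start, with any base inside an annotated untranslated region left out. Capitals mark CACCC on either strand, a core bound by Krüppel-like factors. TTCCNNGAA (BCL6 and STAT like) and GGAAGT (ETS) were also searched on both strands and are not in these stretches. CANNTG (E-box) was searched as well and is not marked. Of the 4 windows of Cd82, the pair with CACCC is shown; of those not shown, the third held 2 matches to GGAAGT.
Cd81 chr7:143052500-143052738, plus strand: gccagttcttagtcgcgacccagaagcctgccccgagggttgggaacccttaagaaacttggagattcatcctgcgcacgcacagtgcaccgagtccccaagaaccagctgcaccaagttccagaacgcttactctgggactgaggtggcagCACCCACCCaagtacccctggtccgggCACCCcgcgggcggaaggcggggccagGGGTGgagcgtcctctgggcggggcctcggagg
Cd82 chr2:93462503-93462705, minus strand: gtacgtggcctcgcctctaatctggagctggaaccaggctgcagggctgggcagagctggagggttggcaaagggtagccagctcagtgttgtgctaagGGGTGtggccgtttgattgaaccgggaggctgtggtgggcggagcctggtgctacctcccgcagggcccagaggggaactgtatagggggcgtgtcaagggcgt
Cd82 chr2:93452684-93452922, minus strand: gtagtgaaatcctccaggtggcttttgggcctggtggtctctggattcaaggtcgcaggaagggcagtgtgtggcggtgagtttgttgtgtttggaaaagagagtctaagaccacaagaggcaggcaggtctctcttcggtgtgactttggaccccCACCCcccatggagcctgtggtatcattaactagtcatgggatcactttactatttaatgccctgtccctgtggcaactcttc
Tspan32 chr7:143004796-143005045, plus strand: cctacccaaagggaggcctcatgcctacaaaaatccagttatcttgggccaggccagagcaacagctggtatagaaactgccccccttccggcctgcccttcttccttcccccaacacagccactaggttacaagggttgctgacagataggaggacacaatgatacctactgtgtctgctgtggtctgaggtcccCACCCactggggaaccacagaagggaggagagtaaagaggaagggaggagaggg

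The Cd81 stretch held 4 CACCC matches, of which the first pair overlap, and each of the other stretches held 1, those of Cd82 having been chosen for it. Over 32851 windows of 250 bases from 27025 genes, CACCC was in 52.0%, GGAAGT in 19.7% and TTCCNNGAA in 4.06%. Of the members' 14 windows, 8 held CACCC, 3 held GGAAGT and 0 held TTCCNNGAA. CANNTG was in 66.2% of all windows and in 9 of the members' 14. These matches describe letters only.

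The rest of the mouse family, 21 genes, added 6 tested genes, of which 4 were called, beside 8.49% of all genes. Rom1, low in Tfh cells, and Tspan6, low in non-Tfh cells, passed the count filter through the group where they were high. The share of called genes is therefore no measure of the family. With the filter of 5 CPM in 2 libraries, 3 of these genes were tested and 2 called. Tspan5, which escorts the protease ADAM10 to the cell surface, had the largest rise among the called ones: it was at 195 and 167 CPM in Tfh T32 and T53 and at 50.2 and 48.6 in non-Tfh T32 and T53 (3.67-fold; log2 fold change 1.88 ± 0.128; edgeR adjusted p = 0.000971), under 13 of 13 alternatives. Tspan3 was at 20.95 and 20.79 CPM in Tfh and 11.8 and 8.09 in non-Tfh cells (2.08-fold higher; adjusted p = 0.0373). In the other direction, Tspan2, a membrane organiser known from myelin-forming cells, was at 1.42 and 1.92 CPM in Tfh against 10.3 and 4.83 in non-Tfh cells (4.68-fold lower; log2 fold change -2.23; adjusted p = 0.0381). Rom1, known from photoreceptor discs, was at 1.51 and 0.873 CPM in Tfh against 4.77 and 5.96 in non-Tfh cells (4.22-fold lower; adjusted p = 0.0273). In each of these 4 genes the groups did not overlap, but only Tspan5 was called with each library left out in turn. The adjusted p of Tspan3 was 0.112 without Tfh T32, 0.108 without Tfh T53 and 0.0595 without non-Tfh T53. That of Tspan2 was 0.155 without Tfh T32, 0.0891 without Tfh T53 and 0.116 without non-Tfh T32, where its log2 fold change was -1.56, and that of Rom1 was 0.0899 without Tfh T53 and 0.0657 without non-Tfh T53. Tspan2 was also not called by limma-voom (0.0752).

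Of the family genes not called, Tspan14, which also escorts ADAM10, was at 84.8 and 81.1 CPM in Tfh and 91.4 and 91.8 in non-Tfh cells (edgeR adjusted p = 0.528). Tspan6 was at 1.508 and 1.397 CPM in Tfh and 0.372 and 0.225 in non-Tfh cells, with a log2 fold change of 2.19 from 2 to 18 counts a library (adjusted p = 0.0612). It passed the threshold with no count filter (0.0333) and with the library number as a block (0.0343). Tspan17, of the same ADAM10-escorting group as Tspan5, had 9, 6, 10 and 8 counts and was not tested. In the whole family of 31 genes, 15 were tested, with 4 called higher and 2 lower in Tfh cells, and the other 16 had at most 13 counts in a library, 8 of them 0 in all libraries. The difference between Tspan5 and Tspan14 was not tested.

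Tetraspanins act through the proteins they hold, and a list of 57 such partners, regulators and enzymes was read in the same fit. Of its genes 50 were tested, 5 were called higher and 11 lower in Tfh cells (32%, against 8.49% of all genes), and the median log2 fold change was -0.01. The list was chosen with earlier results of these data known, so its share describes the list only. Among the lower calls, Ifitm2 and Ifitm3 passed the count filter through the non-Tfh group, where they were high. Laterally bound membrane proteins held most of the lower calls, 8 of 22 tested with 1 higher, and the 8 integrin chains among them had 4 lower, 1 higher and a median of -1.12. Signalling and trafficking genes had 4 higher and 1 lower of 17 tested, proteases and their regulators 2 lower of 4, and the 7 enzymes that add or remove palmitate had no call.

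Among the integrins, Itga6 is a laminin-binding chain that CD151 holds. It was at 37.79 and 30.04 CPM in Tfh T32 and T53 and at 111 and 90.8 in non-Tfh T32 and T53 (2.95-fold lower, edgeR adjusted p = 0.00438). Itga4, a partner of CD81 and CD53 in the VLA-4 integrin, was at 31.3 and 34.1 CPM in Tfh and 467 and 223 in non-Tfh cells (10.6-fold lower; log2 fold change -3.41; adjusted p = 0.0127). Itgb1, the beta chain of both, was at 364 CPM in each Tfh library and at 839 and 620 in non-Tfh libraries (2.01-fold lower; adjusted p = 0.0203). Itga3, another laminin-binding chain that CD151 holds, was chosen after its values were seen. It was at 9.64 and 7.51 CPM in Tfh and 11.0 and 6.74 in non-Tfh cells, overlapping and not called (edgeR adjusted p = 0.956). Among the chains given so far, those called were lower in both Tfh libraries and Itga3 was not called. The Itga4 call was lost without Tfh T32 (0.130) or Tfh T53 (0.164), its log2 fold change was -2.77 without non-Tfh T32, and the Itgb1 call likewise (0.0612 and 0.0680). Itgal and Itgb7, chosen after their values were seen, were 1.89-fold higher (adjusted p = 0.0328) and 2.37-fold lower (0.0256); without Tfh T53 their adjusted p was 0.0987 and 0.0557, and without non-Tfh T32 it was 0.0870 and 0.0550. Itgb2, an abundant beta chain that pairs with Itgal, was at 429 and 417 CPM in Tfh and 353 and 359 in non-Tfh cells and was not called (0.285).

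The other surface partners that were called, Cd47, Ifitm2, Ifitm3 and Igsf8, were all lower in Tfh cells, and those not called lay on either side. Cd47, the signal that holds back phagocytes, was at 106 and 89.6 CPM in Tfh and 222 and 197 in non-Tfh cells (2.14-fold lower; edgeR adjusted p = 0.00718). Ifitm2, an interferon-induced membrane protein of the family found with CD81 and CD9, was at 0.503 and 0.349 CPM in Tfh and 8.27 and 18.9 in non-Tfh cells (29.2-fold lower; log2 fold change -4.87; adjusted p = 0.00786). That value rests on 6 and 2 counts in Tfh libraries, was -4.17 on the log2 scale without non-Tfh T53, and may include reads shared with its paralogs, which were not examined. Its relative Ifitm3 was 9.48-fold lower (edgeR adjusted p = 0.0247), from 28 and 2 counts in Tfh libraries. Ifitm3 was not called with the library number as a block, without non-Tfh T32 or without non-Tfh T53. Its log2 fold change ran from -3.445 to -2.658 over 3 fits with a library left out. Igsf8, the main direct partner of CD81 and CD9, chosen after its values were seen, was at 8.13 and 7.34 CPM in Tfh and 16.7 and 13.5 in non-Tfh cells (1.94-fold lower; adjusted p = 0.0444). Its adjusted p was 0.0628 by DESeq2, 0.0563 by limma-voom, 0.131 without Tfh T32, 0.209 without Tfh T53 and 0.126 without non-Tfh T32. Ptgfrn, another direct partner of CD81 and CD9, was at 14.8 and 27.4 CPM in Tfh and 17.4 and 21.9 in non-Tfh cells, overlapping and not called (0.925). Cd2, Cd44 and Icam1, adhesion molecules of T cells, lay higher in both Tfh libraries with log2 fold changes of 0.37, 0.53 and 0.42 and were not called (0.133, 0.210 and 0.183). Cd5, Cd6 and Ifitm1 lay lower in both Tfh libraries, with log2 fold changes of -0.36, -0.27 and -4.64, and were not called (0.106, 0.296 and 0.0603). The choice of Ptgfrn, Cd2, Cd44, Icam1, Ifitm3, Cd5, Cd6 and Ifitm1 followed a look at their values. Cd4, the co-receptor that CD81 and CD82 bind, was at 1046 and 1062 CPM in Tfh and 927 and 915 in non-Tfh cells and was not called (0.467).

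In the lysosomal and vesicle compartment where CD63 resides, Lamp2 was at 180 and 198 CPM in Tfh and 101 and 86.9 in non-Tfh cells (2.01-fold higher; edgeR adjusted p = 0.00806). Lamp1 was at 138 and 130 CPM against 83.1 and 77.7 (1.67-fold higher; adjusted p = 0.0136; 0.0598 without Tfh T32). These lysosomal membrane genes thus rose beside a Cd63 of 0 to 2 counts. Rhbdf2, a regulator of the shedding protease ADAM17, was at 11.98 and 14.67 CPM in Tfh and 25.4 and 25.7 in non-Tfh cells (1.94-fold lower; adjusted p = 0.0232; 0.129 without Tfh T32). Adam10, the cargo of Tspan5 and Tspan14 and chosen after its values were seen, was at 118 and 138 CPM in Tfh and 105 and 121 in non-Tfh cells, overlapping and not called (0.533). Msn, which links tetraspanin patches to actin, was at 776 and 654 CPM in Tfh and 1006 and 917 in non-Tfh cells and was not called (0.157).

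**Figure D4:**
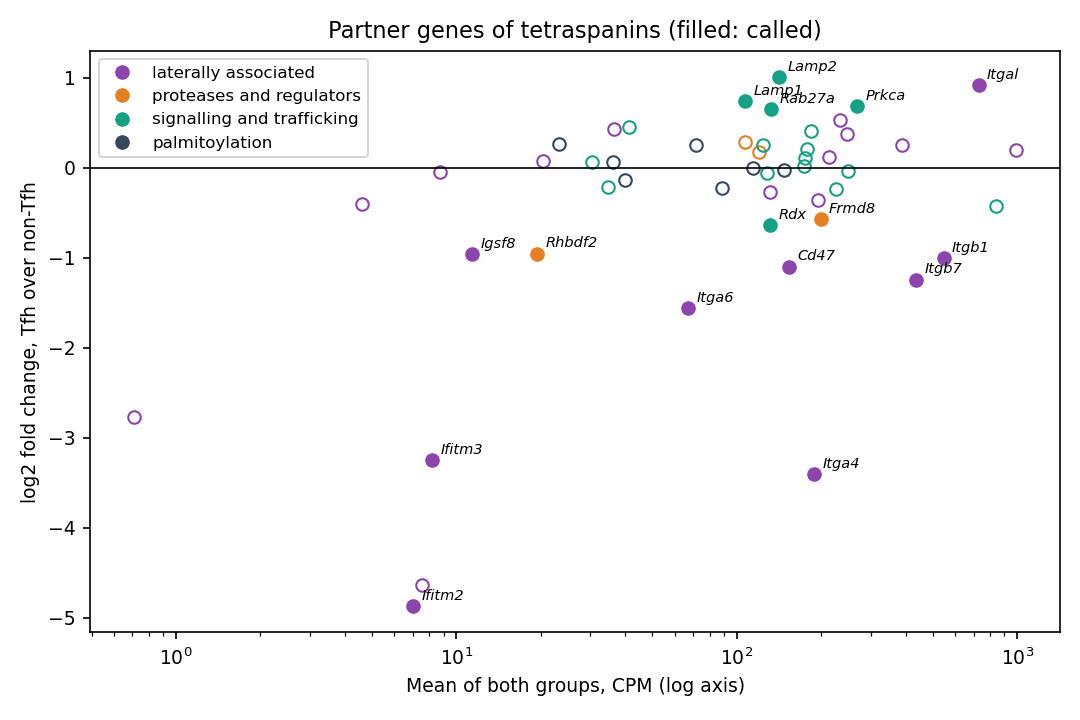
Log2 fold change of Tfh over non-Tfh for the 50 tested partner genes against their mean CPM (log axis), coloured by role; filled points were called at an adjusted p under 0.05. The filled points below 0 number 11 and those above number 5.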

How the data were processed

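Stranded total RNA libraries from 4 samples (2 Tfh, 2 non-Tfh) were sequenced in read pairs of 75 bases, per the labels' protocols. The deposited files hold whole-number counts per Ensembl gene. The submitters' processing notes name TopHat2, Bowtie2, HTSeq and GRCm38 (mm10); versions, annotation release and strand setting are not given in the sources used here. Symbols and positions came from GENCODE M21 (37607 of 39179 identifiers; the other 1572 held 0.209 to 0.228% of counts).

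Counts were filtered with filterByExpr, scaled by TMM and tested two-sided with robust quasi-likelihood fits (R 4.3.3, edgeR 4.0.16) on a model of group only (residual degrees of freedom, 2), with Benjamini-Hochberg adjustment over 11702 genes. CPM are TMM-scaled; per kb values use the union of exons. The biological coefficient of variation was 0.156. The fit was tested on simulated data. Members and lists were chosen with earlier results of these data known. The rule for named genes took all members, other called tetraspanins and the most abundant uncalled ones, up to 8 called partners by adjusted p and 3 abundant uncalled ones, and the neighbours of Tspan32 and Cd81. Alternatives used RLE or upper-quartile scaling, DESeq2 1.42.0, limma-voom (limma 3.58.1), other filters, no robust option, a replicate block, removal of mitochondrial and of the 10 most abundant genes, and each library in turn left out. Numbers T32 and T53 were not taken as pairs, since no label says what they mark and there are only 2 (correlation of deviations 0.371). Sequence windows and figures used Python 3.11.15, pandas 2.3.3, numpy 2.4.6 and matplotlib 3.10.9.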

Additional observations from a re-analysis of the deposited data

How the results depend on the processing

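No called value changed direction. Of 397 alternative log2 fold changes over 31 genes, 353 stayed called or uncalled as in the reported fit, 40 lost the call and 4 gained it. Sign changes between fits that both left a gene uncalled are counted among the 353. All genes called numbered 994 in the reported fit, 1986 with no count filter, 2120 with the library number as a replicate block and 545 to 884 with a library left out, the lowest without Tfh T53. DESeq2 called 1139 and limma-voom 852. The members called numbered 2, or 1 to 2 with a library left out. Other tetraspanins called numbered 4, or 2 with the filter of 5 CPM in 2 libraries and 1 to 3 with a library left out. Partners called numbered 16, or 7 to 14 with a library left out. Cd82 ranged from 0.74 to 0.90 on the log2 scale with a library left out. With the replicate block 3 members were called, Cd9 added (adjusted p = 0.0231), 5 other tetraspanins, Tspan6 added (0.0343), and 23 partners. Cd37 and Cd151 kept their sign in 12 of 13 alternatives and Cd53 in 9. With 2 libraries per group, and 1 left after leaving one out, that lone library is assumed to vary like the others, and Cd63 and the other untested tetraspanins had too few counts for the test at these depths.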
